A study of Mus musculus with 11 samples.

Results

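Glucocorticoid response genes were followed as a set of 10: Nr3c1, Fkbp5, Tsc22d3, Sgk1, Klf9, Klf15, Cebpb, Cebpd, Ddit4 and Errfi1. They were picked by symbol from a fixed list, which was chosen with earlier results of these data known. All 10 were found among the 55385 genes of the deposited count table and passed the filter on low counts. RNA was sequenced from whole gastrocnemius, a calf muscle, of mice killed after 36 h without food, in 11 libraries, each a pool of 2 mice per the series design. The control groups carried ZEB1 flx/flx (2 libraries, numbered 2 and 3) or ZEB2 flx/flx (3 libraries) without Cre, and the knockout groups were ZEB1 flx/flx; HSACre (3 libraries) and ZEB2 flx/flx; HSACre (3 libraries). HSACre is a recombinase under a skeletal actin promoter, which is active in muscle fibres and not in the other cells of the muscle. Every group was fasted, so no level here can be set against fed muscle. A group with HSACre and unfloxed alleles is not among those analysed here, so loss of the ZEB gene and presence of Cre cannot be told apart. Ages are not given in the labels.

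Glucocorticoids are steroid hormones of the adrenal gland that rise during fasting. The receptor encoded by Nr3c1 waits in the cytoplasm with HSP90 chaperones, enters the nucleus once it has bound hormone, and activates genes from inverted repeats of a short DNA element. In skeletal muscle this programme slows protein synthesis, promotes protein breakdown and frees amino acids for glucose production by the liver. Fkbp5, Tsc22d3, Sgk1, Klf9, Klf15, Cebpb, Cebpd, Ddit4 and Errfi1 are widely used as its target genes, and below they are called the 9 targets. Both ZEB proteins are zinc-finger factors, mostly repressors, that bind E-box elements.

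Promoter sequences are shown first, because the receptor's inverted repeat can be seen in 1 of them and single copies of its element in a few others. RefSeq windows (GRCm38.p6) from 250 bases before to 50 bases after a transcription start were matched by symbol for 8 of the 10 genes, 16 windows in all. Nr3c1 and Cebpd had no window. The receptor hexamer was searched as AGAACA on both strands (TGTTCT on the other), and the full inverted repeat as AGAACA and TGTTCT facing each other with any 3 bases between, so that each full repeat also holds 2 hexamers. The ZEB element was searched as CACCTG on both strands (CAGGTG on the other). Capitals mark matches, and the 5 windows below are those of the kinase gene with the full repeat, of a target with a lone hexamer, and of 3 targets with no match.
Sgk1, the fifth of its 6 windows, chr10:21993640-21993939, plus strand: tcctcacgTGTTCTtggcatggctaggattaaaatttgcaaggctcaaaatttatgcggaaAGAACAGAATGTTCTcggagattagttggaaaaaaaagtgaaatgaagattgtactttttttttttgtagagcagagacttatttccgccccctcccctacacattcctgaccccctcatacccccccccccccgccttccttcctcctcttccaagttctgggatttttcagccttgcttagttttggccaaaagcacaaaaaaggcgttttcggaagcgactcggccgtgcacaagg
Tsc22d3, the first of its 3 windows, chrX:140600473-140600772, minus strand: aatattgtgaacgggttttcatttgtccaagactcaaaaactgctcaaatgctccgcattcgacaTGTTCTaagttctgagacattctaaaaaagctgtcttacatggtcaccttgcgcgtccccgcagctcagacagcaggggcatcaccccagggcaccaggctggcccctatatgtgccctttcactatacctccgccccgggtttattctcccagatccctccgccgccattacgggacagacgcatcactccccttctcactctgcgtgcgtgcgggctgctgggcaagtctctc
Ddit4, chr10:59951721-59952020, minus strand: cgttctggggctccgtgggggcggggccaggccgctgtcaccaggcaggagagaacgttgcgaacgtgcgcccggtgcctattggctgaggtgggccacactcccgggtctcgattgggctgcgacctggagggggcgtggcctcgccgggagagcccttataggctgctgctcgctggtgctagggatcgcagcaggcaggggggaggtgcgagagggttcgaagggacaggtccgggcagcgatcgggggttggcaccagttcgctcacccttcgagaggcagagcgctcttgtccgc
Klf15, chr6:90462326-90462625, plus strand: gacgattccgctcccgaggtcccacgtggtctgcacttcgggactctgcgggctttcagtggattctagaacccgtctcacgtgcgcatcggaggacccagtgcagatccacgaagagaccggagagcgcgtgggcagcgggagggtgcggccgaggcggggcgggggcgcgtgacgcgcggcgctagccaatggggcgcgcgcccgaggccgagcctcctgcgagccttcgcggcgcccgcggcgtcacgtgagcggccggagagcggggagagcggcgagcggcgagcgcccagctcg
Fkbp5, chr17:28486100-28486399, minus strand: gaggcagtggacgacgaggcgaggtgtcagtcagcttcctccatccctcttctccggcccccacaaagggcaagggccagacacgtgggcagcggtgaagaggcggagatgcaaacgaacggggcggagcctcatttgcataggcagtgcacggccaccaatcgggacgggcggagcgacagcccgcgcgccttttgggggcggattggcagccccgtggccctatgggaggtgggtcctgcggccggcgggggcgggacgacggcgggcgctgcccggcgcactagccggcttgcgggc

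The full repeat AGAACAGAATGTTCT lay 189 to 175 bases before that Sgk1 start (chromosome 10, 21993701 to 21993715, GRCm38.p6), inside the span of the gene and outside all of its GENCODE M21 exons. Of 32851 RefSeq windows of the same length, 3 held such a repeat (0.00913%), and the other two belonged to Acnat2 and Gm35041. A hexamer was found in 4 of the 16 windows, 3 of Sgk1 and 1 of Tsc22d3, against 19.0% of all windows. The ZEB element in the form CACCTG or CAGGTG was in 0 of the 16 windows and in 20.2% of all windows. Shorter or variant forms of it were not searched. A match is a match of letters and not a measured binding site, and a window without a match says nothing of sites elsewhere.

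In ZEB2 knockout muscle, each of the 9 targets stood higher in all 3 knockout libraries than in any of the 3 ZEB2 controls. Fitted differences ran from 1.82-fold for Klf9 to 4.63-fold for Ddit4, an inhibitor of mTORC1 signalling, while the receptor gene Nr3c1 was at 1.03-fold. In ZEB1 knockout muscle these 10 genes showed no common direction, with 5 above and 5 below the ZEB1 controls. None of these differences passed the test over all genes in either line (edgeR quasi-likelihood, Benjamini-Hochberg adjusted p under 0.05), where 0 of 15416 genes were called in each (0%).

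For the ZEB2 line, the members' median log2 fold change was 1.35 and that of all tested genes -0.047. The 9 targets had an unadjusted p under 0.05 with higher values in knockouts, as did 15.9% of all tested genes, and 9 of the 10 members did not overlap between groups with knockouts higher, as did 21.3% of all tested genes. Counted in either direction, 33.2% of tested genes had an unadjusted p under 0.05 in this line, so the members were among many genes that did. DESeq2 called 6 of the members higher (Errfi1, Cebpb, Sgk1, Tsc22d3, Fkbp5 and Klf9), beside 9.08% of tested genes called higher, and edgeR fitted on the ZEB2 groups alone called 7 (Errfi1, Cebpb, Klf15, Ddit4, Fkbp5, Cebpd and Klf9), beside 7.61%. Klf15, Cebpd and Ddit4 were not called by DESeq2, Sgk1 and Tsc22d3 were not called by the fit on the ZEB2 groups, and limma-voom called 0 members.

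Several other measurements moved with the ZEB2 groups. Summed levels of 4 Y-linked genes, which are transcribed in male tissue, were 117.7, 249.9 and 0 CPM (counts scaled by TMM to a common library size) in ZEB2 controls and 215.7, 256.4 and 378.2 CPM in knockouts, ranges that overlap. Xist, transcribed in female tissue, was at 185.2, 0.42 and 128.2 CPM in those controls and 73.1, 2.09 and 3.29 CPM in knockouts. With the Y-linked sum as a covariate, the 9 targets were all still higher in knockouts, by 0.48 to 1.52 on the log2 scale. None had an unadjusted p under 0.05 (edgeR adjusted p from 0.478 to 0.608), beside 4.54% of all tested genes under 0.05 and higher in that fit. The Y-linked sum differed between libraries with Xist near 0 and was highest in ZEB2_KO 3. That fit is therefore not an adjustment for a known sex make-up. The mitochondrial genome took 16.0% to 18.0% of counts in ZEB2 controls and 12.1% to 14.9% in knockouts. The library ZEB2_KO 3 was the highest of all 11 for each of the 10 members, and without it the targets' log2 fold changes ran from 0.66 to 1.90, with an unadjusted p under 0.05 for 2 of them (Errfi1 and Cebpb), beside 8.7% of all tested genes under 0.05 and higher. Without ZEB2_control 3 that number was 3 (Errfi1, Cebpb and Sgk1), beside 6.99% of tested genes. Without ZEB2_control 1 it was 5 (Errfi1, Cebpb, Sgk1, Fkbp5 and Klf9), beside 13.2%. It stayed at 9 without ZEB2_control 2 (14.5% of tested genes), ZEB2_KO 1 (15.1%) or ZEB2_KO 2 (14.5%). Each of these shares over all genes was below the 15.9% of the fit on all libraries.

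**Figure D1:**
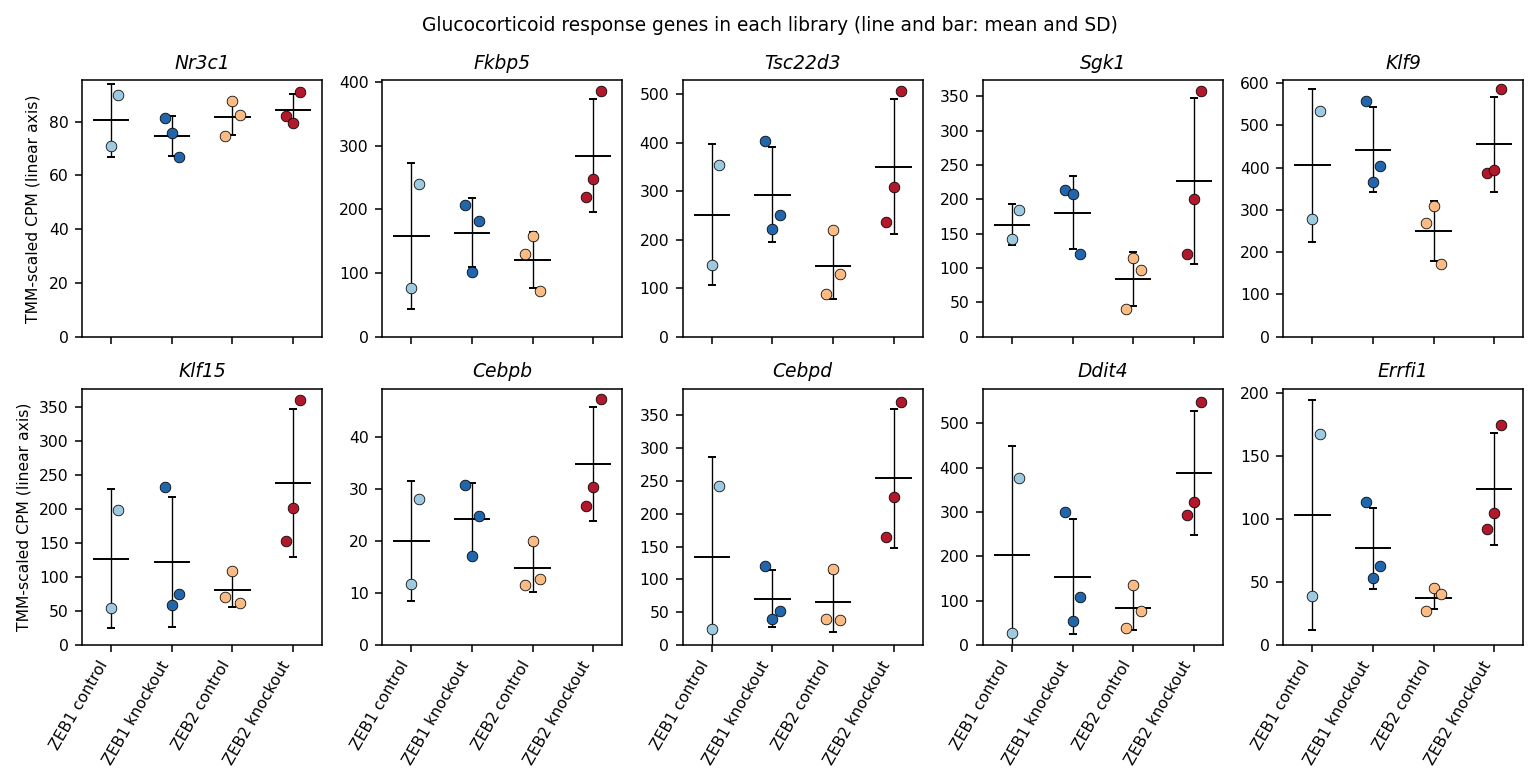
Each panel plots 1 gene on a linear axis in TMM-scaled CPM, with a point for each library, a horizontal line at the group mean and a bar of 1 SD (n = 2 for ZEB1 control, n = 3 otherwise; bars reaching below 0 stop at the axis). Red points (ZEB2 knockout) lie above all orange points (ZEB2 control) for the 9 targets but not for Nr3c1, and both ZEB1 controls lie far apart for Ddit4 (27.7 and 377.1 CPM).

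Nr3c1 (ENSMUSG00000024431.15; GRCm38 chromosome 18, 39410545 to 39519421, minus strand) encodes the glucocorticoid receptor itself. Its level was 74.7, 87.5 and 82.6 CPM in ZEB2 controls and 82.1, 79.6 and 90.9 CPM in ZEB2 knockouts, and these groups overlapped. The log2 fold change was 0.045 ± 0.14 (SE), so that 2 SE on either side reach from -0.23 to 0.32 (edgeR, adjusted p = 0.833). In the ZEB1 line its controls had 70.8 and 90.03 CPM against 81.2, 75.8 and 66.8 CPM in knockouts (log2 fold change -0.11, SE 0.15). Across all 11 libraries its highest value was 1.36 times its lowest, the narrowest range of the 10 genes.

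Fkbp5 (ENSMUSG00000024222.17; chromosome 17, 28399094 to 28517527, minus strand) encodes an HSP90 co-chaperone that lowers the receptor's affinity for hormone, a feedback step. ZEB2 controls held 130.5, 158.2 and 71.3 CPM, a mean of 120.0 ± 44.4 (SD, n = 3), and ZEB2 knockouts 220.2, 248.4 and 386.2 CPM, a mean of 284.9 ± 88.8 (n = 3). Every knockout library was above every control, with a log2 fold change of 1.25 ± 0.45 (SE; edgeR adjusted p = 0.104). ZEB1 controls at 76.8 and 239.9 CPM enclosed the ZEB1 knockouts at 207.1, 102.2 and 181.5 CPM. The log2 fold change there was 0.047 ± 0.50 (SE).

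Tsc22d3 (ENSMUSG00000031431.13; chromosome X, 140539528 to 140600659, minus strand), known as GILZ, encodes a leucine zipper protein that carries part of the anti-inflammatory action of glucocorticoids, and its promoter window above holds a lone hexamer. It was measured at 87.4, 219.6 and 130.0 CPM in ZEB2 controls and 237.4, 307.9 and 507.3 CPM in knockouts. The nearest values of both groups, 219.6 and 237.4 CPM, lay close together, and the log2 fold change was 1.27 ± 0.44 (SE; edgeR adjusted p = 0.0987). ZEB1 controls stood at 148.1 and 354.6 CPM and ZEB1 knockouts at 404.2, 222.2 and 250.4 CPM, overlapping groups with a log2 fold change of 0.22 (SE 0.49).

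Sgk1 (ENSMUSG00000019970.15; chromosome 10, 21882184 to 21999903, plus strand) encodes a serum- and glucocorticoid-regulated kinase related to AKT, and carries the full repeat printed above. Levels in ZEB2 controls were 40.0, 114.5 and 96.9 CPM. The knockouts of that line had 120.2, 200.8 and 357.3 CPM, the first of them just above the highest control. The log2 fold change was 1.43 ± 0.45 (SE; edgeR adjusted p = 0.0898). In the ZEB1 line both controls, at 141.8 and 184.1 CPM, lay within the range of the knockouts at 213.8, 207.8 and 119.8 CPM. Its log2 fold change there was 0.15 ± 0.50 (SE).

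Klf9 (ENSMUSG00000033863.2; chromosome 19, 23141226 to 23168134, plus strand) encodes a Krüppel-like transcription factor that several hormone receptors induce. It had 269.4, 309.6 and 172.3 CPM in ZEB2 controls and 386.9, 394.1 and 585.6 CPM in ZEB2 knockouts. Among the 9 targets it showed the smallest ZEB2 difference, a log2 fold change of 0.86 ± 0.30 (SE; edgeR adjusted p = 0.0957). ZEB1 controls, at 277.8 and 533.3 CPM, and ZEB1 knockouts, at 557.2, 367.1 and 403.8 CPM, overlapped (log2 fold change 0.13, SE 0.33).

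Klf15 (ENSMUSG00000030087.11; chromosome 6, 90462576 to 90475238, plus strand) encodes a Krüppel-like factor through which the receptor drives amino acid breakdown in muscle. Its ZEB2 controls were at 71.4, 108.4 and 61.9 CPM, a mean of 80.6 ± 24.6 (SD, n = 3). The ZEB2 knockouts were at 153.0, 201.9 and 360.4 CPM, a mean of 238.4 ± 108.4 (n = 3), which leaves a gap between the groups. The log2 fold change was 1.57 ± 0.61 (SE; edgeR adjusted p = 0.117). In the ZEB1 line, 54.7 and 199.1 CPM in controls stood beside 232.1, 58.8 and 74.9 CPM in knockouts, so each group held a high library and at least 1 low library (log2 fold change -0.058, SE 0.67).

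Cebpb (ENSMUSG00000056501.3; chromosome 2, 167688915 to 167690418, plus strand) and Cebpd (ENSMUSG00000071637.5; chromosome 16, 15887286 to 15891031, plus strand) encode bZIP transcription factors of the C/EBP family. Exons of Cebpb share 312 bases with Tmem189 and those of Cebpd 562 bases with Spidr, both on the opposite strand. The strand setting of the counting is not given in the sources used here, so reads of these stretches may have been counted to either gene.

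Cebpb was the lowest member in CPM, with 11.5, 20.0 and 12.7 CPM in ZEB2 controls and 26.7, 30.4 and 47.3 CPM in ZEB2 knockouts. All knockouts were above all controls, and the log2 fold change was 1.24 ± 0.36 (SE; edgeR adjusted p = 0.0829). ZEB1 controls at 11.8 and 28.2 CPM overlapped the knockouts at 30.8, 17.1 and 24.8 CPM (log2 fold change 0.28, SE 0.40). For Cebpd, ZEB2 controls measured 40.3, 116.4 and 38.1 CPM, and all 3 knockouts were above them at 165.2, 225.5 and 370.6 CPM. That is a log2 fold change of 1.97 ± 0.79 (SE; edgeR adjusted p = 0.121). Its ZEB1 controls were the most unlike pair after those of Ddit4, at 24.7 and 242.0 CPM, and the knockouts lay between them at 120.1, 39.9 and 51.7 CPM (log2 fold change -0.92, SE 0.84).

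Ddit4 (ENSMUSG00000020108.4; chromosome 10, 59949669 to 59951834, minus strand), known as REDD1, encodes an inhibitor of mTORC1 and so of protein synthesis. ZEB2 controls were at 39.5, 136.5 and 75.9 CPM and ZEB2 knockouts at 294.4, 323.0 and 548.6 CPM, means of 84.0 ± 49.0 and 388.7 ± 139.2 (SD, n = 3 each). It showed the largest ZEB2 difference of the 10 genes and also the largest error, a log2 fold change of 2.21 ± 0.89 (SE; edgeR adjusted p = 0.124). In ZEB1 controls, 27.7 and 377.1 CPM differed 13.6-fold. The ZEB1 knockouts, at 300.3, 53.4 and 109.1 CPM, lay between those controls, with a log2 fold change of -0.39 ± 0.95 (SE).

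Errfi1 (ENSMUSG00000028967.10; chromosome 4, 150853919 to 150868892, plus strand), known as MIG6, encodes a feedback inhibitor of the EGF receptor. In ZEB2 controls it was tightly grouped at 27.2, 45.1 and 40.1 CPM. The ZEB2 knockouts, at 92.4, 104.4 and 174.1 CPM, were each well above the highest control. The log2 fold change was 1.72 ± 0.50 (SE; edgeR adjusted p = 0.0830). ZEB1 controls at 38.8 and 167.4 CPM again enclosed the knockouts at 113.5, 53.5 and 62.8 CPM (log2 fold change -0.43, SE 0.54).

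**Figure D2:**
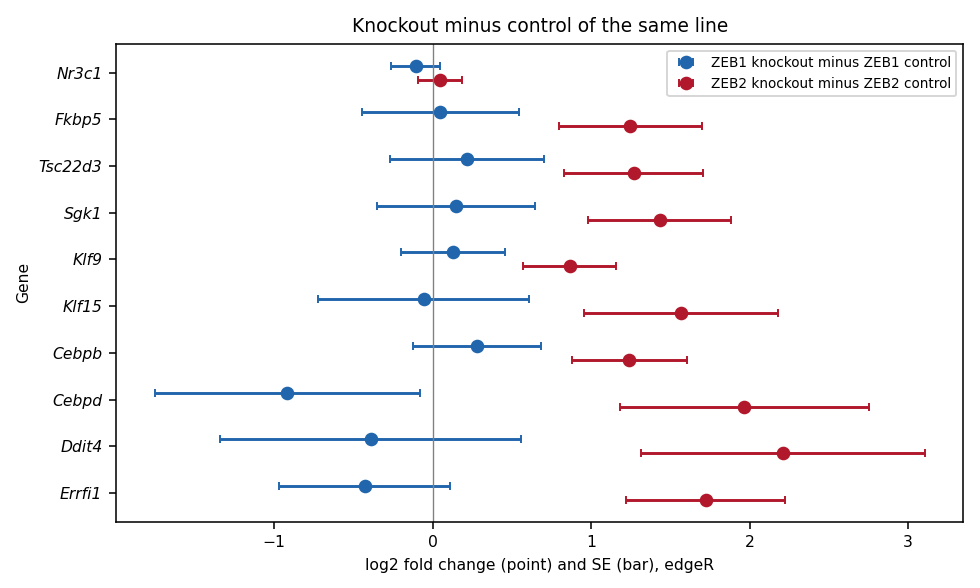
Points give the edgeR log2 fold change of each gene, knockout minus the control of its line, and bars give 1 SE on either side. All 9 targets have ZEB2 values (red) between 0.86 and 2.21, while the ZEB1 values (blue) run from -0.92 to 0.28 and Nr3c1 lies near 0 in both.

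In the ZEB1 contrast, 0 members had an unadjusted p under 0.05, beside 3.24% of all tested genes, and for 0 members did knockouts and controls separate, beside 7.19% of tested genes with knockouts higher and 6.69% with knockouts lower. The edgeR adjusted p was 1.000 for each member. Over all tested genes edgeR called 0 here, with 499 at an unadjusted p under 0.05, and DESeq2 called 21 and limma-voom 1, none of them a member. The direction in this line rested on the controls: without ZEB1_control 2 all 10 members were lower in knockouts (median log2 fold change -0.44), and without ZEB1_control 3 all 10 were higher (median 1.00, up to 2.46 for Ddit4). In the fit on all libraries 2 SE on either side of the ZEB1 value reached from -2.29 to 1.51 for Ddit4 and from -0.53 to 0.78 for Klf9.

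**Figure D3:**
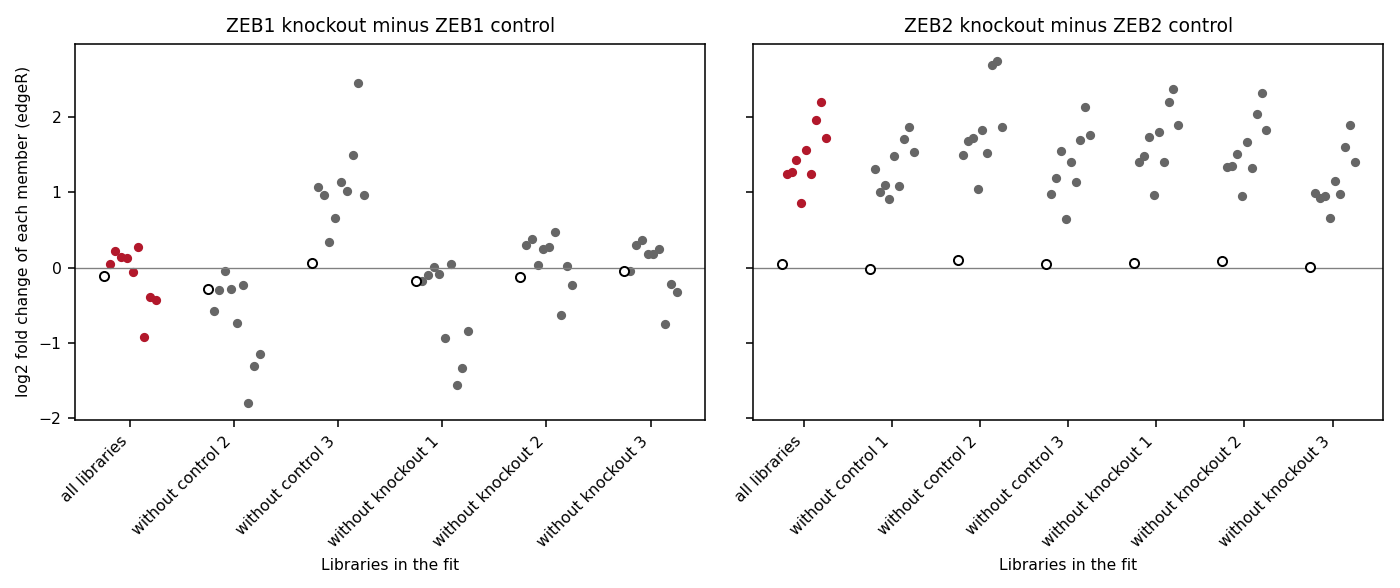
Each point is the edgeR log2 fold change of 1 member, in the fit on all libraries (red) and in fits that leave out 1 library of the line (grey), with Nr3c1 as an open circle and the members in the same order within each column. In the ZEB1 panel all members are below 0 without control 2 and above 0 without control 3, and in the ZEB2 panel the targets are above 0 in every column.

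The difference between the ZEB1 and ZEB2 effects was tested directly as an interaction. It was negative for all 10 members, which means a lower effect in the ZEB1 line, with a median of -1.24 on the log2 scale. Errfi1 differed by -2.15 (SE 0.73, edgeR unadjusted p = 0.0144) and Cebpd by -2.88 (SE 1.14, unadjusted p = 0.0299). These were 2 of the 10 members under 0.05 and lower, beside 4.17% of tested genes under 0.05 and lower and 9.26% in either direction, and adjusted p ran from 0.516 to 0.768. No gene of the table was called for this difference by edgeR (0%), with 1427 genes at an unadjusted p under 0.05, and DESeq2 called 17, none a member. These values moved when either ZEB1 control was left out. Without ZEB1_control 3, Ddit4 was at 0.23, the median was -0.28 and 0 members were under 0.05 and lower (0.624% of tested genes). Without ZEB1_control 2 the median was -1.72 and 8 members were under 0.05 and lower (11.2% of tested genes), none with an adjusted p under 0.05. The number was 6 without ZEB2_control 2 (4.99% of tested genes), 4 without ZEB1_KO 1 (7.05%) and 3 without ZEB2_KO 1 (5.16%). It was 1 without each of ZEB1_KO 2 (2.44%), ZEB1_KO 3 (5.06%), ZEB2_KO 3 (2.44%), ZEB2_control 1 (3.61%) and ZEB2_control 3 (1.81%). No member passed for this difference in any of these fits.

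Levels in both control groups also differed in the samples at hand. ZEB2 controls were below ZEB1 controls for 9 of 10 members, all but Nr3c1, with a median of -0.74 on the log2 scale, and 0 members passed (edgeR, adjusted p = 1.000 for each), beside 0.0195% of tested genes. Errfi1 was at -1.46 (SE 0.54, unadjusted p = 0.0217), the member under 0.05 and lower, beside 1.75% of tested genes, and Sgk1 was the member for which all 3 ZEB2 controls lay below both ZEB1 controls, as did 7.66% of tested genes. Without ZEB1_control 3 the median was 0.25 and 0 members were under 0.05 and lower (2.02% of tested genes). Without ZEB1_control 2 it was -1.23, all 10 members were lower and 7 were under 0.05 (3.57% of tested genes). That number was 4 without ZEB2_control 2 (1.03% of tested genes) and 3 without ZEB2_KO 3 (2.23%). It was 2 without ZEB1_KO 1 (2.11%) and 0 without ZEB2_control 1 (2.49%). The 3 contrasts share control libraries with this one, so their values are not independent of each other.

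Between some libraries of the same group all 10 members differed in the same direction, and between others they did not. All 10 were higher in ZEB1_control 3 than in ZEB1_control 2, by a median ratio of 2.73, while 45.1% of tested genes were higher there and their median ratio was 0.957. All 10 were higher in ZEB1_KO 1 than in ZEB1_KO 2 and in ZEB1_KO 3 (49.6% of tested genes for each), and in ZEB2_control 2 than in ZEB2_control 1 (48.4%) and in ZEB2_control 3 (44.7%). In ZEB2_KO 3 all 10 had their highest value of the 11 libraries, as had 24.7% of tested genes. ZEB1_control 2 was among the lowest 3 libraries for 9 of the 10. Other pairs split. From ZEB2_control 1 to ZEB2_control 3, Fkbp5 went from 130.5 to 71.3 CPM and Tsc22d3 from 87.4 to 130.0 CPM. From ZEB1_KO 2 to ZEB1_KO 3, Sgk1 went from 207.8 to 119.8 CPM and Fkbp5 from 102.2 to 181.5 CPM. The targets were higher in ZEB2_KO 2 than in ZEB2_KO 1, but Nr3c1 was lower (79.6 and 82.1 CPM). Y-linked sums, in the order of the labels, were 0 and 162.9 CPM in ZEB1 controls and 0, 0 and 209.8 CPM in ZEB1 knockouts, and those of the ZEB2 line are given above. The part of sex make-up in this pattern within groups was not tested.

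**Figure D4:**
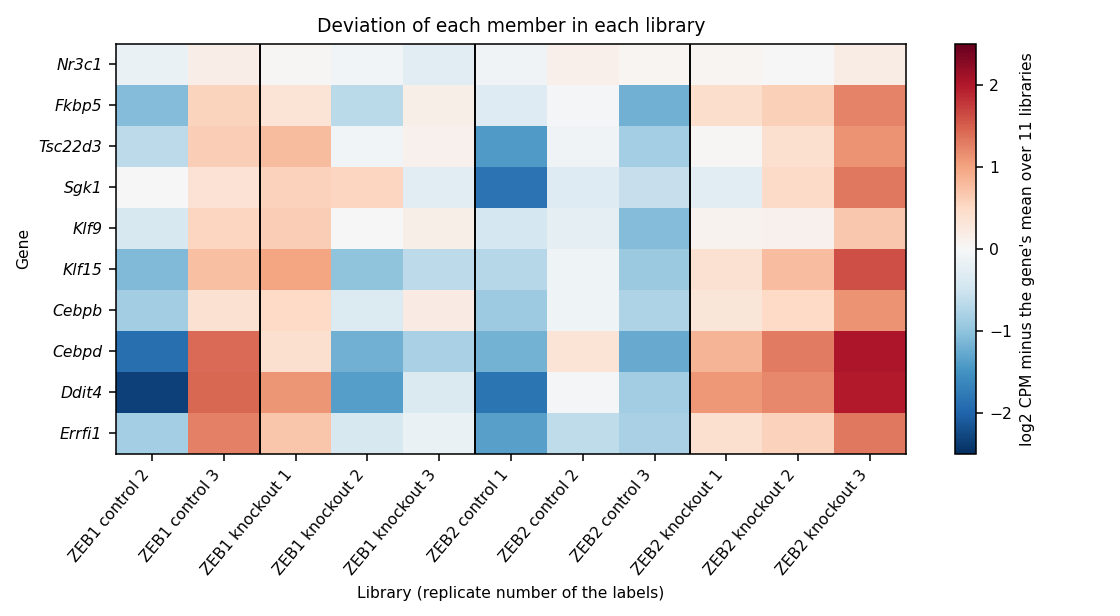
Colours show log2 CPM of each gene in each library minus that gene's mean over the 11 libraries, red above and blue below, with black lines between the groups. ZEB2_KO 3 is above 0 in every row, ZEB1_control 2 is blue for most rows, and the Nr3c1 row is pale throughout.

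The spread among replicates was wide for most members. The gene-wise biological coefficient of variation had a median of 0.384 over the members and 0.207 over all tested genes. Of the 10, 8 exceeded 0.277, the 90th percentile of the 7267 genes with a mean of at least 10 CPM. Ddit4 was highest at 0.694, and Nr3c1 lowest at 0.157. From the lowest to the highest library, Ddit4 covered a 19.8-fold range, Cebpd 14.99-fold and Sgk1 8.93-fold, against 3.40-fold for Klf9.

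Correlations describe the same pattern. They are over 11 libraries on log2 CPM, points that share group, pool and scaling, and are given without a test. Over the 36 pairs of targets, Pearson's r ran from 0.51 to 0.96 with a median of 0.87, and after group means were subtracted from 0.22 to 0.97 with a median of 0.89. For Nr3c1 with each target the median r was 0.49, and 0.79 after group means were subtracted.

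Among 11466 other genes with a mean of at least 1 CPM, those with the highest mean r to the members over the 11 libraries were Slc10a6 (0.887), Maff (0.878), Nfil3 (0.871), Tra2b (0.870) and Herpud1 (0.867). Slc10a6 encodes a transporter of sulfated steroids, Maff and Nfil3 bZIP transcription factors, Tra2b a splicing factor and Herpud1 a protein of the ER stress response. After group means were subtracted the list was Slc10a6 (0.893), Maff (0.891), Siah1a (0.889), Spidr (0.886) and Foxo1 (0.884). Spidr shares exon bases with Cebpd, as described above. Single members had their own nearest genes: Rora for Fkbp5 (0.987), Lrig1 for Klf15 (0.988), Nfkbia for Errfi1 (0.973), Foxo1 for Cebpb (0.972), Maff for Ddit4 (0.977), Riok1 for Cebpd (0.980), Pip4p1 for Klf9 (0.979), Csrnp1 for Tsc22d3 (0.957), Klf6 for Sgk1 (0.922) and Zfp408 for Nr3c1 (0.938).

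Levels of different genes were compared per length, as CPM per kb of the union of a gene's exons. Ddit4 had the highest mean over the 11 libraries, 118.4 ± 97.2 (SD), followed by Klf9 at 80.4 ± 26.9, Tsc22d3 at 60.1 ± 28.8 and Klf15 at 51.4 ± 34.8. Cebpd at 34.8 ± 29.6 and Sgk1 at 33.3 ± 17.1 came next, then Errfi1 at 23.3 ± 14.4, Fkbp5 at 19.4 ± 9.70 and Cebpb at 15.8 ± 7.13, and the receptor Nr3c1 last at 10.4 ± 1.00. Neighbours in this order kept it in every library in 2 cases, Klf9 above Tsc22d3 and Klf15 above Cebpd (11 of 11 each). Ddit4 was above Klf9 in 7 of 11 libraries and Cebpd above Sgk1 in 6 of 11, so these neighbours did not differ beyond their spread. The order was not the same in every group. Klf9 was above Ddit4 in ZEB1 knockouts (91.9 and 87.9 CPM per kb) and ZEB2 controls (52.0 and 47.8), Klf15 was above Tsc22d3 in ZEB2 knockouts (85.4 and 80.8), and Sgk1 was above Cebpd in ZEB1 knockouts (36.8 and 18.8). Nr3c1 was last in the other groups but not in ZEB2 controls, where it stood at 10.6, above Errfi1 at 10.5 and Cebpb at 9.79 CPM per kb.

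Genes that make or modify the receptor's signal formed a list of 15, of which 15 were tested. Of these, 11 stood above and 4 below their ZEB2 controls in the knockouts (median log2 fold change 0.19), and 0 passed (edgeR). An unadjusted p under 0.05 was seen for 4 with higher values (H6pd, Nrip1, Hsp90ab1 and the HSP90 co-chaperone gene Ptges3, named after its values were seen) and for 1 with lower values (Nr3c2), beside 15.9% of all tested genes higher and 17.3% lower. DESeq2 called 1 of the 15 (Hsp90ab1), and edgeR on the ZEB2 groups alone called 3 (Hsp90ab1, Ptges3 and Nr3c2), beside 16.8% and 14.2% of tested genes called in either direction. Hsp90ab1, a chaperone that holds the receptor ready for hormone, had 942.6, 1053 and 751.7 CPM in ZEB2 controls and 1353, 1337 and 1767 CPM in knockouts (log2 fold change 0.70, SE 0.22). H6pd, which supplies cofactor to the enzyme that regenerates active hormone, overlapped between groups, with 67.3, 136.7 and 51.0 CPM and then 76.1, 180.0 and 392.2 CPM (1.35, SE 0.58). Nrip1, a nuclear receptor corepressor, was at 29.5, 38.7 and 29.0 CPM and then 40.2, 46.3 and 80.4 CPM (0.78, SE 0.34).

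Nr3c2, the mineralocorticoid receptor, which also binds glucocorticoids, was the lowest of the list in the ZEB2 contrast. Its controls had 9.90, 7.89 and 11.04 CPM against 5.11, 5.66 and 4.45 CPM in knockouts, without overlap, as did 22.1% of tested genes with knockouts lower (log2 fold change -0.92, SE 0.35; edgeR adjusted p = 0.110). Hsp90aa1 (-0.069, SE 0.28) and the co-chaperone gene Fkbp4 (-0.19, SE 0.15) came next on the log2 scale. In ZEB1 knockouts 10 of the 15 were higher and 5 lower (median 0.027). Hsd11b1, the enzyme that regenerates active glucocorticoid in tissues, is named after its values were seen: 11.6 and 17.8 CPM in ZEB1 controls and 9.97, 8.66 and 8.36 CPM in knockouts (log2 fold change -0.71, SE 0.22; edgeR unadjusted p = 0.00746, adjusted p = 1.000).

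A further 26 genes reported as glucocorticoid targets in muscle or elsewhere, all tested, were listed beside the members. This list too was chosen with earlier results of these data known, so its counts are not independent of them. Against ZEB2 controls 23 stood higher in knockouts and 3 lower (median log2 fold change 1.23), 15 with an unadjusted p under 0.05 and higher values, beside 15.9% of all tested genes, and 21 without overlap between groups, beside 21.3%. None passed with edgeR on all libraries. DESeq2 called 10 higher, beside 9.08% of tested genes, and edgeR on the ZEB2 groups alone 13, beside 7.61%. Arrdc3 and Arrdc2, which encode alpha-arrestins, and Foxo1, a forkhead transcription factor of muscle wasting, were the highest. Arrdc3 was at 39.3, 130.0 and 48.5 CPM in ZEB2 controls and 131.9, 271.2 and 565.9 CPM in knockouts (log2 fold change 2.15, SE 0.78). Arrdc2 was at 67.9, 109.4 and 53.7 CPM and then 203.8, 205.4 and 337.5 CPM (1.69, SE 0.46; edgeR adjusted p = 0.0793). Foxo1 reached a log2 fold change of 1.82 (SE 0.52).

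The 3 genes below 0 in that list were Bcl6, Dusp1 and Pik3r1. Bcl6, a transcriptional repressor, had 15.5, 53.9 and 64.9 CPM in ZEB2 controls and 14.99, 23.0 and 13.1 CPM in knockouts, which overlapped (log2 fold change -1.39, SE 0.60). Dusp1, a MAP kinase phosphatase and a classical glucocorticoid target, had 17.6, 36.9 and 51.9 CPM and then 20.0, 22.1 and 19.6 CPM, also overlapping (-0.79, SE 0.38). Pik3r1, a regulatory subunit of PI3 kinase, was at -0.17 (SE 0.23). In the ZEB1 line 15 of the 26 were higher in knockouts and 11 lower, with a median of 0.050.

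Genes reported as targets of KLF15 formed a list of 8, of which 7 were tested and Tdo2 was not. Klf15 itself was higher in every ZEB2 knockout library than in any ZEB2 control. Of the 7 genes, 5 stood higher in ZEB2 knockouts and 2 lower (median log2 fold change 0.32), and 0 passed (edgeR). Over all tested genes 46.6% stood higher, with a median of -0.047. The part of Klf15 in these values was not tested. DESeq2 called 2 of the 7, Gpt2 higher and Gpt lower, beside 16.8% of tested genes called in either direction. On the ZEB2 groups alone edgeR called 0 of them, beside 14.2%. Gpt2, the mitochondrial alanine aminotransferase, was at 227.6, 219.9 and 117.5 CPM in ZEB2 controls and 289.5, 297.9 and 425.0 CPM in knockouts (0.84, SE 0.31). Gpt, its cytosolic counterpart, went the other way, from 20.7, 13.9 and 15.9 CPM to 12.5, 10.9 and 9.88 CPM (-0.60, SE 0.17; edgeR adjusted p = 0.0817). Neither Gpt2 nor Gpt overlapped between groups. In the list 2 genes did not overlap with knockouts higher and 1 with knockouts lower, beside 21.3% and 22.1% of tested genes. Got1 stood at 0.70 (SE 0.43), Bcat2 at 0.33 (SE 0.16), Slc7a5 at 0.28 (SE 0.27) and Slc27a1 at -0.089 (SE 0.30). In ZEB1 knockouts 6 of the 7 were higher (median 0.30), beside 51.2% of all tested genes, and 0 passed (edgeR). There 3 of the 7 did not overlap with knockouts higher, beside 7.19% of tested genes.

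**Figure D5:**
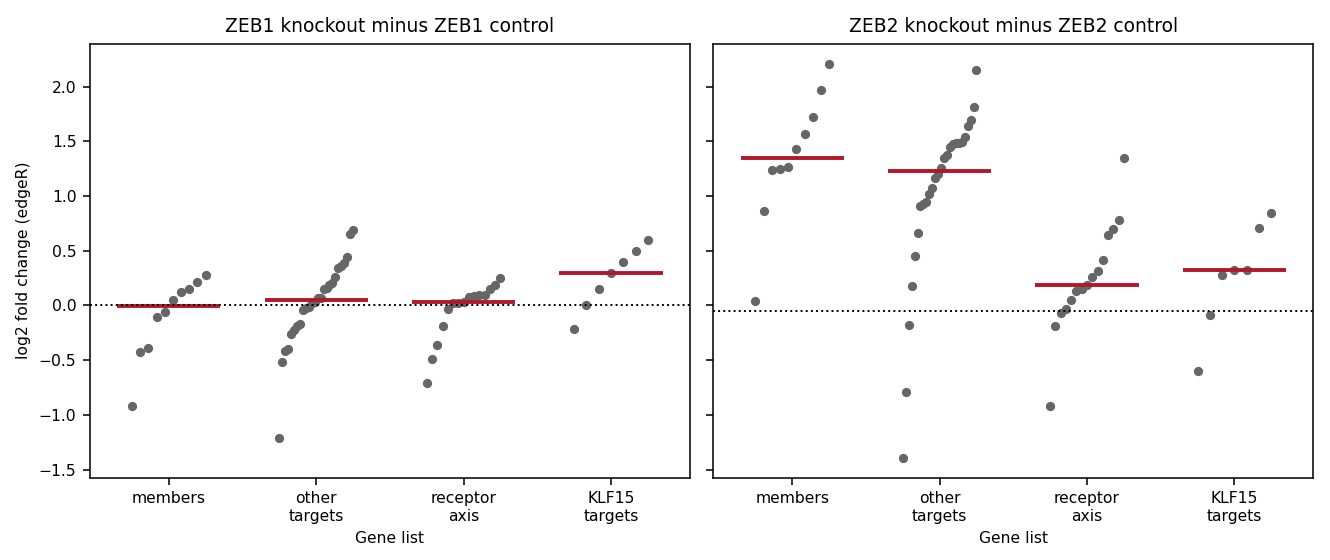
Points are edgeR log2 fold changes of the genes of each list, the red line is the list's median and the dotted line the median of all tested genes. In the ZEB2 panel the medians are 1.35 for the members, 1.23 for the other targets, 0.19 for the receptor axis and 0.32 for KLF15 targets, and in the ZEB1 panel they lie between -0.0053 and 0.30.

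Total counts ran from 27.3 M to 46.3 M per library, and the smallest count of any member in a library was 360, for Cebpb. All 8 skeletal muscle markers were present in every library, with sums of 85763 to 112323 CPM. In the ZEB2 line that sum was 89787 to 96424 CPM in controls and 108077 to 112323 CPM in knockouts. Of the 8 muscle markers, 6 had a log2 fold change above 0 there and 2, Myh1 and Mb, below 0. Myh1 was at 4428 to 6543 CPM in controls and 2642 to 3336 CPM in knockouts. Mb was at 2252 to 2677 CPM and 1385 to 2171 CPM. Sums of 5 fibroblast markers were 899.0 to 1237 CPM in controls and 578.7 to 756.2 CPM in knockouts. Of these 5, Col1a2 and Col3a1 did not overlap, beside 22.1% of tested genes with knockouts lower. Col1a1, Pdgfra and Dcn overlapped, with Dcn at 449.0 to 596.4 CPM and 493.5 to 561.8 CPM. Sums of 5 tendon markers were 85.9 to 169.4 CPM and 54.0 to 68.0 CPM. Those of 7 macrophage markers were 56.8 to 71.9 CPM and 43.6 to 49.6 CPM. Of these 7, 6 had a log2 fold change below 0, and Cd68 was above 0 (3.28 to 4.70 CPM and 3.68 to 5.38 CPM). Sums of 7 adipocyte markers (346.9 to 517.8 CPM and 196.6 to 374.1 CPM) overlapped, those of 6 endothelial (352.3 to 447.1 CPM and 306.9 to 347.4 CPM) did not, and those of 5 erythroid markers (1389 to 1778 CPM and 1132 to 1427 CPM) overlapped. The 6 lymphocyte markers summed to 0.855 CPM or less in every library, with Cd3e at 0 in ZEB2 knockouts, and the 5 neutrophil markers to 6.36 CPM or less, with Ly6g at 0 in all groups but ZEB1 knockouts. The part of these other cells in the members' differences was not tested, and in whole muscle fewer cells of a type and less RNA per cell cannot be told apart. The targeted genes were on the side of their labels: Zeb1 measured 41.2 and 51.1 CPM in ZEB1 controls against 28.4, 28.6 and 30.4 CPM in knockouts, and Zeb2 at 24.1, 23.1 and 25.8 CPM and 18.3, 14.4 and 17.7 CPM in the ZEB2 line. Such counts also include exons outside the deleted part and other cells of the muscle.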

How the data were processed

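The authors deposited 1 table of estimated counts per gene, written as whole numbers and not normalized, for 11 RNA-seq libraries. The submitters' processing notes name STAR, RSEM, DESeq2 and the build GRCm38. How these tools were set, with which annotation and strand option, is not given in the sources used here. Libraries were stranded and poly(A)-selected, per the labels' protocols.

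Analysis used edgeR 4.0.16 in R 4.3.3. The filter filterByExpr (minimum count 10, minimum total 15) passed 15416 genes with 99.96% of the counts. Libraries were scaled by TMM. Contrasts came from a robust quasi-likelihood fit of 4 group means to all 11 libraries, and p-values were adjusted by Benjamini-Hochberg over every tested gene, with calls at 0.05. The SE was obtained as |log2 fold change| over the root of the F statistic. Groups follow the sample titles, and a p-value here reflects only how pools of a group varied. The script was tested on simulated counts. Alternatives used limma 3.58.1 (voom), DESeq2 1.42.0, other scalings and filters, fewer groups, a replicate block, a Y-linked covariate and leaving out each library.

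The members and lists (receptor axis, other glucocorticoid targets, KLF15 targets) were chosen with earlier results of these data known. Named genes were all members, the 3 highest and 3 lowest genes of each list in the ZEB2 contrast with a mean of at least 1 CPM, and the genes most like the members by Pearson's r. Coordinates are from GENCODE M21.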

Additional observations from a re-analysis of the deposited data

How the results depend on the processing

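Of the settings other than leaving out a library, those that moved the number of genes called were as follows. In the ZEB1 contrast (0 called with edgeR), DESeq2 called 21, limma-voom 1 and the fit without a low-count filter 6. In the ZEB2 contrast (0 called, 5113 at an unadjusted p under 0.05), DESeq2 called 2587 genes, the fit without a filter 348 and the fit on the ZEB2 groups alone 2077, and of the members DESeq2 called 6 and the ZEB2 groups alone 7. For the difference of effects (0 called), DESeq2 called 17 and the fit without a filter 2. Between the controls (3 called), DESeq2 called 16, RLE scaling 5, the fit without a filter 7, the stricter filter 4, the Y-linked covariate 4 and limma-voom 2. Leaving out 1 library gave 0 to 5 called genes in the ZEB1 contrast, 0 to 3 for the difference and 1 to 5 between the controls. The cause was not tested.

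Some members changed sign under a single setting. In the ZEB1 contrast Klf15 was at 0.21 with the Y-linked covariate, Ddit4 at 0.24 with limma-voom and 0.080 with the covariate, and Sgk1 at -0.034 with the replicate block. Nr3c1 was at -0.087 in the ZEB2 contrast with upper-quartile scaling, which moved the median of all genes there to -0.18, and at -7.4e-05 between the controls with the stricter filter. Leaving out 1 library, log2 fold changes in the ZEB1 contrast ran from -0.29 to 0.067 for Nr3c1, -0.94 to 1.14 for Klf15, -0.29 to 0.66 for Klf9, -0.58 to 1.08 for Fkbp5, -0.30 to 0.97 for Tsc22d3, -1.15 to 0.97 for Errfi1, -0.24 to 1.02 for Cebpb, -1.80 to 1.501 for Cebpd, -1.34 to 2.46 for Ddit4 and -0.045 to 0.36 for Sgk1. In the ZEB2 contrast Nr3c1 ran from -0.014 to 0.098, and for the difference Ddit4 from -3.57 to 0.23. Between the controls Nr3c1 ran from -0.16 to 0.19, Klf15 from -1.33 to 0.55, Fkbp5 from -1.02 to 0.63, Cebpb from -0.96 to 0.30, Cebpd from -1.92 to 1.38 and Ddit4 from -2.19 to 1.59. Over all settings run, the members' median in the ZEB2 contrast ran from 0.91 to 1.71, that of the other targets from 0.64 to 1.48, of the receptor axis from 0.056 to 0.28 and of the KLF15 targets from 0.20 to 0.51.

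The labels do not say that replicate numbers pair the samples, so the numbers were not used as pairs. Deviations of same-numbered libraries correlated at 0.195, -0.027 and -0.313 in the ZEB2 line and at 0.465 and 0.174 in the ZEB1 line. With 2 ZEB1 controls, each ZEB1 knockout correlates with them at equal values of opposite sign, so this check could not settle the pairing. With the replicate block 0 genes and 0 members were called in both knockout contrasts and their difference, with a smallest adjusted p of 0.892 (ZEB1), 0.078 (ZEB2) and 0.368 (difference). Members with an unadjusted p under 0.05 for the difference numbered 7 with the block and 2 without it, beside 6.68% and 4.17% of tested genes under 0.05 and lower. The fit on only the groups compared was not run for the difference, nor the block between the controls. Groups of 2 or 3 pools limit every value here, and no library was sequenced without the 36 h fast.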
